A study of Bos taurus with 8 samples.

Results

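The distal part of a tiled domain of cattle chromosome 29 was described in hypothalamic arcuate nucleus DNA of 8 heifers. It comprised every non-control probe target on chromosome 29 with a start from 50750000 to 51627535 (Btau_3.1, the build named in the file headers), which gave 757 of the 10249 targets of the array. The choice rested on position alone. The domain ran over 877 kb, with the first target starting at 50750981 and the last ending at 51627535. Gene names, exons and introns were not assigned, because the gene table at hand is on another assembly.

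All heifers were followed from 4.5 to 8.5 months of age, when the tissue was taken, and differed in the body weight gain at which feeding was aimed. The 4 high-gain heifers (heifers 1 to 4) were fed for 1 kg per day and the 4 low-gain heifers (heifers 5 to 8) for 0.5 kg per day. Each heifer gave 1 two-colour array, on which DNA pulled down by a methyl-CpG binding protein (enriched, red channel) was hybridised with total DNA of the same heifer (input, green channel). The labels describe no untreated or ad libitum group, so the comparison is between 2 fed groups, and the tissue name was not checked against markers, since no expression was measured.

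In mammalian DNA, methylation sits mainly on the cytosine of CpG pairs, and most CpG pairs outside CpG-dense promoters carry it. A methyl-CpG binding domain protein holds double-stranded fragments that carry methylated CpG, so that captured DNA is enriched where CpG pairs are both present and methylated. The arcuate nucleus holds neurons that govern appetite and, through the hormones that drive the pituitary, the onset of puberty. The measured tissue mixes neurons and glia, and a change in the methylation of a cell type and a change in the share of that cell type cannot be told apart.

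Values are log2 ratios of enriched to input signal, from which the median of all non-control probes of that array was subtracted. A value of 0 therefore marks the median probe of the array and not unmethylated DNA. Probe values were averaged into regions, defined as runs of 3 or more probes whose starts lay within 1000 bp of the next, and into 20 kb windows of a fixed grid with at least 10 probes. Of the domain, 110 regions with 552 probes and 37 windows with 721 probes were assigned by the start of their first probe. One region that began before 50750000 and ran into the domain was left to the neighbouring stretch. The high-gain and low-gain arrays were compared with limma over all 960 regions, 354 windows or 10249 probes of the array, with Benjamini-Hochberg adjustment over each of these sets and a threshold of 0.05.

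The domain was tiled unevenly. The median distance between neighbouring starts was 629.5 bp, with an interquartile range of 348 to 1248 bp, and 18 gaps were longer than 5 kb. The longest gap, of 55866 bp, lay between the starts at 51015912 and 51071778. The targets spanned 46 to 61 bases, counted from start to end as listed, and 68.7% of them (520) spanned 46 bases, against 33.0% of the targets elsewhere on the array. The base composition of the targets was not analysed here.

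Captured DNA gave signal well above background, as called by the scanner software, at 80.6%, 80.8%, 79.8% and 81.8% of the domain's probes in high-gain heifers 1 to 4. It was so at 74.0%, 76.0%, 76.5% and 60.6% in low-gain heifers 5 to 8, all under the high-gain heifers, and low-gain heifer 8 stood lowest. The groups stood in the same order over all probes of the array, at 70.7% to 76.1% in high-gain and 49.6% to 68.3% in low-gain heifers. The input channel was well above background at 86.7% to 95.6% in the 8 arrays, and no spot of the domain was saturated. Captured DNA stayed short of that level on all 4 high-gain arrays at 73 probes and on all 4 low-gain arrays at 106 probes, with 66 probes common to both. Of the 110 regions, 55 held at least 1 such probe.

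Taken as a whole, the domain lay above the array median in some heifers and at it in others. The median of its log2 ratios was 0.0026, -0.15, 0.013 and 0.37 in high-gain heifers 1 to 4, and 0.0037, 0.47, 0.55 and 0.45 in low-gain heifers 5 to 8. Low-gain heifers 6, 7 and 8 were the 3 highest, high-gain heifer 4 came next, and low-gain heifer 5 lay among the other high-gain heifers. The group means of these medians were 0.058 ± 0.22 (SD, n = 4) for high-gain and 0.37 ± 0.25 (SD, n = 4) for low-gain animals, with overlapping groups. The spread within the domain also differed between heifers. Its interquartile range was 0.55, 0.70, 0.89 and 0.97 in high-gain heifers 1 to 4, and 0.76, 1.20, 1.33 and 1.53 in low-gain heifers 5 to 8. In every one of the 8 heifers this was narrower than outside chromosome 29, where it ran from 0.80 to 2.49. The stretch of chromosome 29 proximal to the domain lay between both in all 8 heifers, with 0.64 to 1.64. The medians of that stretch ranked the heifers alike. Low-gain heifers 6, 7 and 8 were highest at 0.35, 0.41 and 0.32, high-gain heifer 4 came next at 0.28, and the others had -0.040 to 0.065.

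Along the domain, methyl-CpG enrichment stayed close to the array median with a few higher and lower stretches. The means of both groups ranged from -0.66 to 0.74 over the 110 regions, with a median of 0.13 and an interquartile range of -0.063 to 0.29, where the median over all 960 regions was -0.043. Past the adjusted threshold (limma, mean of both group means against 0), 10 regions of the domain (9.09%) lay above the array median and 2 (1.82%) below it. Over the whole array 3.33% of regions were called above and 9.58% below. In the stretch proximal to the domain it was 5.79% and 4.96% of 121 regions. The number of calls, 12 in all, depended on which heifers were included. Leaving out a high-gain heifer gave 5 calls (heifer 1), 4 (heifer 3) or 5 (heifer 4). Without high-gain heifer 2 there were 8 calls above and 3 below. Leaving out a low-gain heifer gave 32 calls (heifer 5), 2 (heifer 6), 4 (heifer 7) or 1 (heifer 8). Within slide row 1 the count was 0, and within slide row 2 it was 9. Calls over the whole array in these settings were not counted, so a change in the domain cannot be told from an array-wide one.

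Among the higher stretches, the region from 51366554 to 51368342 (5 probes) was above 0 on 7 of 8 arrays. Its log2 ratio was 0.12, -0.17, 0.54 and 0.64 in high-gain heifers 1 to 4, and 0.61, 1.04, 1.13 and 1.20 in low-gain heifers 5 to 8. The mean was 0.64 with a standard error of 0.13 (limma, adjusted p = 0.0106). All low-gain heifers other than heifer 5 exceeded every high-gain heifer there. In each group, 2 of its 5 probes were too dim in the captured DNA to stand well above background on any array.

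The region from 51127072 to 51129020 (4 probes) had a mean of 0.57 with a standard error of 0.14 (limma, adjusted p = 0.0219), with -0.11 to 0.78 in high-gain and 0.51 to 1.38 in low-gain heifers. The region from 51301146 to 51302187 had the highest mean of the domain, 0.74. Its 4 high-gain values were 0.073, 0.15, 0.25 and 0.65, low-gain heifer 5 lay among them at 0.18, and low-gain heifers 6, 7 and 8 lay at 1.23, 1.80 and 1.62. The next regions in this order, from 51425828 to 51426772 (0.52) and from 50769477 to 50771974 (0.51), did not pass (limma, adjusted p = 0.0575 and 0.0560). The former had 0.23, 0.50, 0.75 and 1.12 in heifers 1 to 4 and -0.037, 0.28, -0.064 and 1.42 in heifers 5 to 8. With normexp background correction the regions starting at 51301146, 51366554 and 51127072 had lower means, of 0.28, 0.16 and 0.050.

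Among the lower stretches, the region from 51415847 to 51419363 (7 probes) was the lowest, with a mean of -0.66 and a standard error of 0.15 (limma, adjusted p = 0.0163). Its values were -0.43, -0.36, -0.28 and 0.33 in high-gain heifers 1 to 4, and -0.33, -1.34, -1.45 and -1.45 in low-gain heifers 5 to 8. Only high-gain heifer 4 was above 0. The means of its single probes ran from -2.03 to 0.44. With the median over its probes in place of the mean the region lay at -0.33 and the call was lost. The region from 50800504 to 50804036 (10 probes) was the other call below the array median, with a mean of -0.51 and a standard error of 0.13 (limma, adjusted p = 0.0245). It was below 0 on 7 of 8 arrays, with high-gain heifer 2 at 0.082 and all low-gain heifers between -0.99 and -0.58. With the median over its probes in place of the mean it lay at -0.095 and the call was lost. The regions from 51144534 to 51146147 (-0.45) and from 51335096 to 51335708 (-0.35) did not pass (limma, adjusted p = 0.0519 and 0.0818), and the latter was at 0.25 with the median over its 3 probes.

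On the scale of 20 kb, 3 windows of the domain (8.11%) were called above the array median and 1 (2.70%) below it, against 5.65% and 24.9% of all windows. In the stretch proximal to the domain 7 of 42 windows (16.7%) were called above and 1 (2.38%) below, so a surplus of high windows was not particular to the domain. The highest was the window with targets from 51220344 to 51239177 (18 probes), with a mean of 0.46 and a standard error of 0.12 (limma, adjusted p = 0.0163). Its values were 0.048, 0.17, -0.081 and 0.14 in high-gain heifers 1 to 4, and -0.11, 1.06, 1.22 and 1.21 in low-gain heifers 5 to 8. Low-gain heifers 6, 7 and 8 carried that peak, and the other 5 heifers lay near 0. With normexp background correction the mean of this window was 0.13. The windows from 51361954 to 51379852 and from 51120140 to 51139991 had means of 0.38 and 0.29 (limma, adjusted p = 0.0108 and 0.0215). The called low window, from 51400156 to 51419363 (24 probes), had a mean of -0.38 (limma, adjusted p = 0.0117), with -0.35, 0.11, -0.51 and 0.082 in high-gain and -0.33, -0.61, -0.47 and -0.93 in low-gain heifers. It holds the lowest region. Window calls, 4 in all, numbered 14, 2, 2 and 1 when low-gain heifers 5, 6, 7 and 8 were left out in turn. For high-gain heifers 1 to 4 there were 3, 3, 2 and 3 calls above and 2, 1, 1 and 1 below. Calls over all windows were not counted in these settings.

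**Figure D1:**
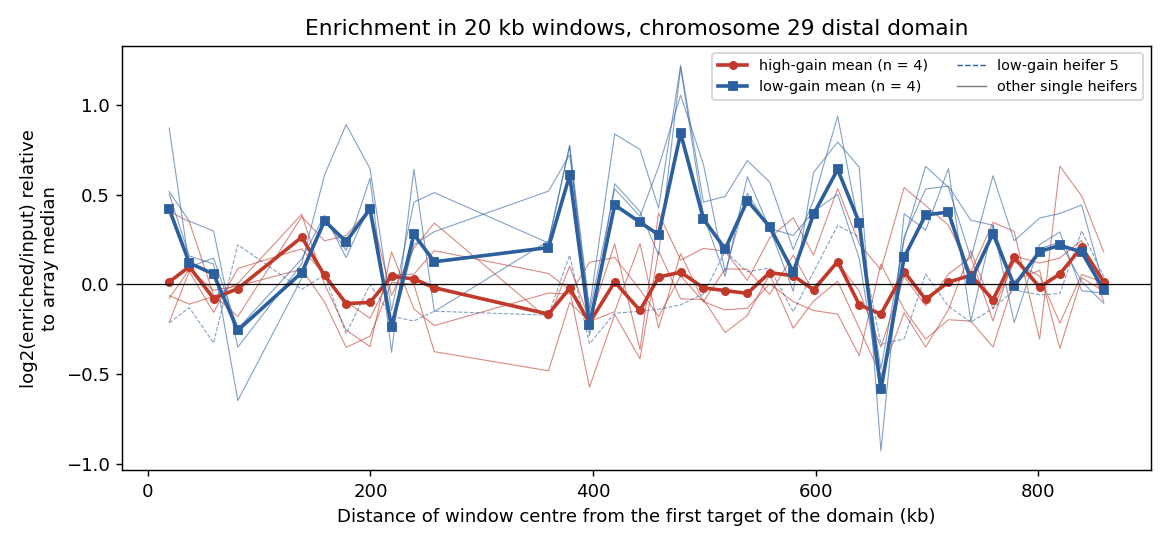
Log2 ratio of enriched to input signal relative to the array median (vertical axis) in the 37 windows of 20 kb, against the distance of the window centre from the first target of the domain in kb (horizontal axis). Thick lines with points are group means of 4 heifers, thin lines single heifers, with low-gain heifer 5 dashed. The low-gain mean swings more widely than the high-gain mean, from its highest window (0.84) to its lowest (-0.59), while low-gain heifer 5 stays near the high-gain lines.

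The profile was wavier in some heifers than in others. The SD over the 37 windows was 0.16, 0.17, 0.19 and 0.24 in high-gain heifers 1 to 4, and 0.18, 0.33, 0.35 and 0.42 in low-gain heifers 5 to 8. Windows above the array median numbered 18, 11, 16 and 30 of 37 in high-gain and 12, 30, 32 and 28 in low-gain heifers. Across the 757 probes, which share arrays and are not independent, the pairs among low-gain heifers 6, 7 and 8 had r = 0.547 to 0.657, and every other pair of heifers had -0.0145 to 0.275. Outside chromosome 29 the split was alike, with 0.573 to 0.666 and -0.00486 to 0.304. Neighbouring probes resembled each other in their mean only at short range. The correlation between neighbours was 0.311 over 148 pairs at most 300 bp apart, 0.156 over 214 pairs at 300 to 600 bp, 0.0792 over 191 pairs at 600 to 1200 bp and 0.0381 over 185 pairs at 1200 to 5000 bp.

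The comparison of the groups asked whether the feeding schedule went with a difference in methyl-CpG enrichment. In the domain 1 region was higher in high-gain heifers, from 50882389 to 50883681. Its log2 ratio was 0.87, 0.51, 0.70 and 0.49 in high-gain heifers 1 to 4, and -0.35, -1.91, -1.63 and -2.04 in low-gain heifers 5 to 8. The groups did not overlap, and low-gain heifer 5 lay closest to the high-gain heifers. The means were 0.64 ± 0.18 (SD, n = 4) and -1.48 ± 0.77 (SD, n = 4), which differed by 2.13 (standard error 0.34; limma, adjusted p = 0.0308). It was the 1 call among 960 regions of the array (0.104%), and since it was picked by that difference, its size tends to be overstated.

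The 3 probes of this region differed among themselves. At 50882389 the high-gain heifers lay at 1.69, 1.57, 1.18 and -0.42 and the low-gain heifers at -0.65, -3.87, -2.47 and -3.78. At 50882814 they lay at 0.030, 0.97, 1.44 and 0.61 and at -0.54, -1.64, -2.05 and -2.88. Neither pair of groups overlapped, and both probes were well above background in both channels on all 8 arrays. The third, at 50883621, lay at 0.89, -1.02, -0.52 and 1.29 and at 0.14, -0.21, -0.37 and 0.54, with overlapping groups. There captured DNA stood well above background on 2 high-gain arrays and on no low-gain array. None of the 3 passed on its own (limma over all probes, adjusted p = 0.248 for the first pair and 0.932 for the third).

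In this region the captured channel on its own was higher in high-gain heifers by 1.84 (standard error 0.35) relative to the array median, which did not pass (limma over 960 regions, adjusted p = 0.154). The input channel differed by -0.27 (standard error 0.20). The call was lost without any single heifer other than low-gain heifer 5 (7 of 8, limma, adjusted p = 0.0637 to 0.169), while the difference stayed between 1.94 and 2.50. By slide row, it was 1.82 in the first and 2.43 in the second (limma, adjusted p = 0.183 and 0.0545). Loess normalisation left a difference of 1.55 with the call lost (limma, adjusted p = 0.136).

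No other region of the domain passed. At unadjusted p under 0.05, 6 of the 110 regions (5.45%) were higher in high-gain heifers, against 6.25% of all regions. In the other direction 23 of the 110 (20.9%) were lower in high-gain heifers, against 8.23% of all regions. Their adjusted p ran from 0.227 to 0.302 (limma), so none of them passed. In all, 77 of the 110 (70%) had a difference below 0, against 52.1% of all regions, and the median difference was -0.34, against -0.025. The groups did not overlap at 4 regions in each direction, against 2.6% of all regions with high-gain heifers above and 3.65% with low-gain heifers above.

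The number of lower regions moved with single heifers. Leaving out low-gain heifers 5, 6, 7 and 8 in turn gave 44, 14, 10 and 11 lower regions. Leaving out high-gain heifers 1 to 4 in turn gave 16, 8, 18 and 29. Over all regions the share of lower ones moved too, from 8.23% to 17.9%, 4.90%, 3.85% and 3.75% for the low-gain heifers. For the high-gain heifers it moved to 5.21%, 3.96%, 6.46% and 10.3%. Higher regions numbered 3 (2.73%) when low-gain heifer 8 was left out, against 4.17% of all regions. With low-gain heifer 5 left out, 4 regions (3.64%) passed the adjusted threshold (limma), 2 in each direction, against 2.60% of all regions. Within slide row 1 there were 4 higher (3.64%) and 6 lower (5.45%) regions, against 6.98% and 2.08% of all regions. Within slide row 2 there were 7 higher (6.36%) and 15 lower (13.6%), against 5.52% and 7.50%. With normexp background correction there were 13 higher (11.8%) and 7 lower (6.36%) regions, against 18.1% and 1.98% of all regions. The median difference was then -0.069 in the domain, with 56.4% of its regions below 0, and 0.11 over all regions.

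Of the regions higher in high-gain heifers, the one from 51076484 to 51077895 (5 probes) came second to the call. Its values were -0.055, 0.56, 0.77 and 0.86 in high-gain heifers 1 to 4, and -0.79, -0.50, -0.32 and -1.11 in low-gain heifers 5 to 8. The groups did not overlap, and here low-gain heifer 5 lay among the other low-gain heifers. They differed by 1.21 (standard error 0.27; limma, adjusted p = 0.111). It passed with normexp background correction (1.13, limma, adjusted p = 0.0246) and with array weights (0.88, limma, adjusted p = 0.0356), and was 0.59 after centring within classes of target span and input brightness. At 3 of its 5 probes the difference was above 0.

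The lowest region of the profile, from 51415847 to 51419363, was also among those higher in high-gain heifers, with a difference of 0.96 (standard error 0.30; limma, adjusted p = 0.227). There low-gain heifer 5, at -0.33, lay inside the high-gain range, and the difference was 0.45 within slide row 1. It passed when low-gain heifer 5 was left out (1.23, limma, adjusted p = 0.0276) and with array weights (0.99, limma, adjusted p = 0.0171). The remaining 3 regions with an unadjusted p under 0.05 differed by 0.53 to 0.74. That from 51561153 to 51563945 had 0.27, 0.12, 0.052 and 0.59 in high-gain and -0.11, -0.28, -0.40 and -0.38 in low-gain heifers, with no overlap. That from 51483063 to 51485665 had -0.16 to 0.17 and -0.77 to -0.31, again with no overlap, and 3 of its 6 probes differed in each direction. That from 51606127 to 51609406 differed by 0.065 within slide row 1 and by 1.41 within slide row 2.

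Of the 23 regions lower in high-gain heifers, that from 51448058 to 51449652 (4 probes) had the smallest p. Its values were -0.44, -0.68, -0.53 and 0.58 in high-gain heifers 1 to 4, and 0.51, 0.64, 0.94 and 0.46 in low-gain heifers 5 to 8. High-gain heifer 4 lay inside the low-gain range, the other 3 high-gain heifers far under it. They differed by -0.90 (standard error 0.29; limma, adjusted p = 0.227), and all 4 probes lay lower in high-gain heifers. The region from 51006254 to 51007898 came next, with -0.78, -0.68, -0.31 and 0.11 in high-gain and 0.083, 0.62, 0.87 and 0.080 in low-gain heifers (difference -0.83, standard error 0.28).

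The other lower regions named by smallest p differed by -0.93 to -0.67. In the region from 51220344 to 51223550 (7 probes, all lower in high-gain heifers) the values were 0.032, -0.21, -0.16 and 0.015 in high-gain and -0.16, 0.74, 1.23 and 1.33 in low-gain heifers. The 4 high-gain heifers and low-gain heifer 5 lay close to 0, and the other 3 low-gain heifers well above it. In the region from 50911898 to 50912979 (3 probes, all lower) the high-gain heifers spread from -0.71 to 0.36 and the low-gain heifers from 0.23 to 1.15. In the region from 51289095 to 51292457 (7 probes, 6 lower) they spread from -0.15 to 0.52 and from 0.39 to 1.02. In the region from 51172197 to 51172971 the groups did not overlap, with a highest high-gain value of 0.48 and a lowest low-gain value of 0.55.

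Low-gain heifer 5 stood apart in most of these. In 18 of the 23 lower regions it had the lowest value of its group, and in 19 it lay at or under the highest high-gain heifer. As these regions were picked for a low ratio of captured to input DNA in high-gain heifers, the sign of either channel is a description. The captured channel was lower in all 23 and the input channel higher in 18. Over all 110 regions the median difference was -0.30 in the captured channel and -0.039 in the input channel, against -0.040 and -0.016 over all 960 regions. For input, 2 regions of the domain had an unadjusted p under 0.05 upwards and 2 downwards, against 1.77% and 1.98% of all regions, and none passed (limma). For captured DNA it was 4 upwards and 15 downwards, against 4.79% and 5% of all regions, and none passed (limma).

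**Figure D2:**
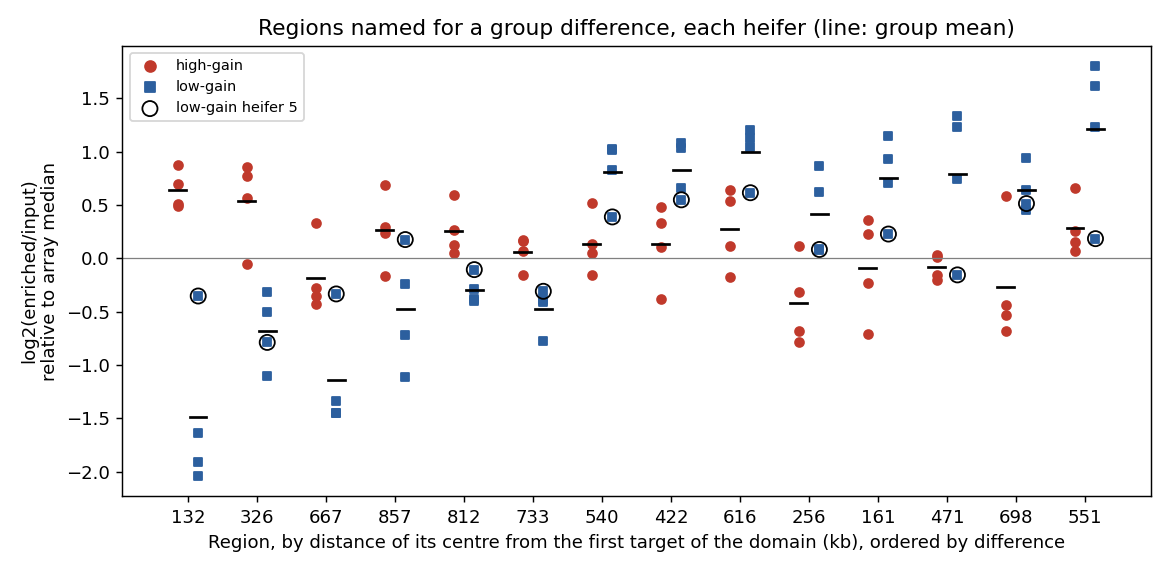
Log2 ratio relative to the array median (vertical axis) of each heifer in the 14 regions named for a group difference, ordered from the most positive to the most negative difference and labelled by the distance of their centre from the first target of the domain in kb (horizontal axis). Red circles are high-gain and blue squares low-gain heifers, black bars are group means, and a ring marks low-gain heifer 5. The region at 132 kb is the one past the adjusted threshold, and low-gain heifer 5 lies nearer to the high-gain heifers than the other low-gain heifers in most of the rest.

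The lower regions were spread along the domain. Split by position into 4 equal stretches, each of 219 kb, the domain held 5, 6, 9 and 3 lower regions out of 30, 17, 36 and 27, in order of rising position. Higher regions numbered 1, 1, 0 and 4. The median difference over regions was -0.32, -0.41, -0.37 and -0.14. All 4 stretches had a median below 0, and the last one, from 51411971 to 51627535, lay closest to it.

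In windows of 20 kb none of the 37 passed, with a smallest adjusted p of 0.182 (limma). With an unadjusted p under 0.05, 1 window was higher and 10 (27.0%) were lower in high-gain heifers, against 5.93% and 8.76% of all windows. Of the 37, 28 (75.7%) differed below 0, against 50% of all windows, and the median difference was -0.25, against -0.0011. The window from 51120140 to 51139991 (22 probes) had the smallest p, with -0.054, -0.10, -0.030 and 0.10 in high-gain heifers 1 to 4 and 0.16, 0.73, 0.77 and 0.78 in low-gain heifers 5 to 8. Its groups did not overlap, as in 1 window of the domain with low-gain heifers above (2.70%) and in 2.82% of all windows, and differed by -0.63 (standard error 0.17). At 5 of its probes captured DNA was well above background on none of the 4 high-gain arrays, and at 6 on none of the 4 low-gain arrays. The window from 51220344 to 51239177, described above, differed by -0.78 (standard error 0.25), and those from 51280942 to 51298494 and from 51361954 to 51379852 by -0.52 and -0.51. The 1 higher window, from 51400156 to 51419363, differed by 0.42 (standard error 0.19), and its input channel by -0.27 in the opposite direction.

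Lower windows, 10 in all, numbered 6, 5, 6 and 15 when high-gain heifers 1 to 4 were left out in turn. For low-gain heifers 5 to 8 they numbered 18, 7, 4 and 5. Over all windows the share of lower ones moved too, from 8.76% to 5.65%, 5.08%, 6.497% and 14.97% for the high-gain heifers. For the low-gain heifers it moved to 18.1%, 5.37%, 3.39% and 3.95%. Within slide row 1 there was 1 lower window (2.70%), against 1.41% of all windows. Within slide row 2 there were 6 (16.2%), against 6.78%. With normexp background correction 7 windows (18.9%) were higher and 0 lower, against 30.2% and 0.282% of all windows. The median over the 37 windows then turned to 0.018, with 17 of them below 0, and that over all windows was 0.15. With low-gain heifer 5 left out, 4 windows of the domain (10.8%) passed, all of them lower in high-gain heifers (limma), against 5.08% of all windows in either direction.

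At single probes none of the 757 passed, with a smallest adjusted p of 0.166 (limma). With an unadjusted p under 0.05, 32 had more enrichment and 47 less in the high-gain group, which is 4.23% and 6.21% of the domain, against 7.21% and 5.2% of all probes. Yet 532 of the 757 probes (70.3%) had a difference below 0, against 55.3% of all probes. The groups did not overlap at 18 probes with high-gain heifers above and at 36 with low-gain heifers above, or 2.38% and 4.76%, against 2.66% and 4.18% of all probes.

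The probe with the smallest p was at 51077847, inside the second of the higher regions, with 0.89, 0.0013, 1.45 and 0.71 in high-gain and -1.40, -3.12, -2.61 and -2.83 in low-gain heifers. The groups did not overlap and differed by 3.25 (standard error 0.52). The probes at 51483063 and 51561153 differed by 3.17 and 2.79, again without overlap. The latter had 0.27, 0.98, 2.00 and 2.46 in high-gain and -0.86, -1.71, -1.12 and -1.76 in low-gain heifers. Among the probes lower in high-gain heifers, that at 51280942 had -0.43, -0.19, 0.13 and -0.22 against 0.36, 1.18, 2.17 and 1.80, with no overlap and a difference of -1.56 (standard error 0.48). The 6 probes named for higher values in high-gain heifers spanned 49 to 61 bases, and of the 6 named for lower values 5 spanned 46 bases and 1 spanned 47.

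**Figure D3:**
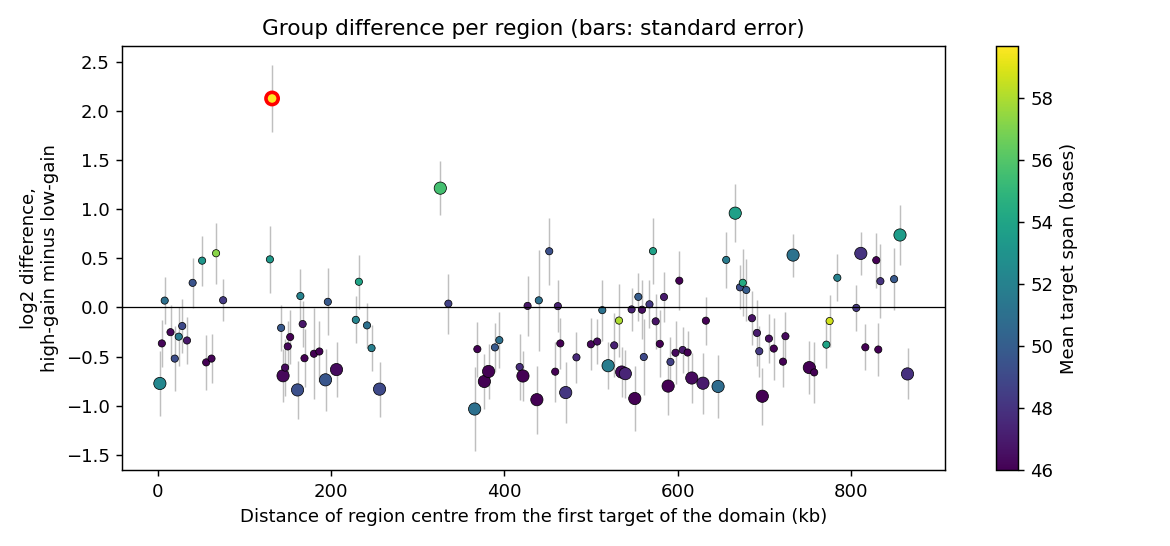
Difference in log2 ratio, high-gain minus low-gain (vertical axis, bars are standard errors from limma), of the 110 regions against the distance of their centre from the first target of the domain in kb (horizontal axis). Colour gives the mean target span of the region in bases, large points have an unadjusted p under 0.05, and the red ring marks the 1 region past the adjusted threshold. Of the 110 regions 77 lie below 0, and those with long targets (light colours) lie mostly above it.

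The size and direction of the group difference went with the span of the targets over all brightness classes together, inside the domain and elsewhere. Among the 520 targets of 46 bases in the domain the median log2 ratio was -0.0057, -0.20, -0.0041 and 0.39 in high-gain heifers 1 to 4, and 0.0024, 0.61, 0.68 and 0.55 in low-gain heifers 5 to 8. Among the 84 targets of 60 or 61 bases it was -0.0036, 0.32, 0.15 and 0.44 in high-gain, and -0.032, -0.80, -0.61 and -0.78 in low-gain heifers. Low-gain heifers 6, 7 and 8 were thus the highest of the 8 at short targets and the lowest at long ones, and low-gain heifer 5 was near 0 at both. The median difference over probes was -0.45 at 46 bases, -0.13 over the 153 targets of 47 to 59 bases and 0.49 at 60 or 61 bases.

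The same order held in the rest of the array, with median differences of -0.36 over 3135, -0.00024 over 2685 and 0.24 over 3672 targets. In the domain the difference was below 0 at 81.3% of the 46-base targets and at 27.4% of those of 60 or 61 bases. Of the 26 regions made of 46-base targets alone, 24 had a difference below 0, 8 were lower and 0 higher in high-gain heifers at unadjusted p under 0.05. In the rest of the array 47 of 52 such regions had a difference below 0, 10 were lower and 0 higher. Of the 13 regions with a mean span over 53 bases, 3 had a difference below 0, 0 were lower and 4 higher. In the rest of the array it was 112 of 379 below 0, with 10 lower and 45 higher. Over the 110 regions the difference correlated with the mean span at r = 0.579 and the profile at r = -0.441, as a description over regions of the same 8 arrays.

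**Figure D4:**
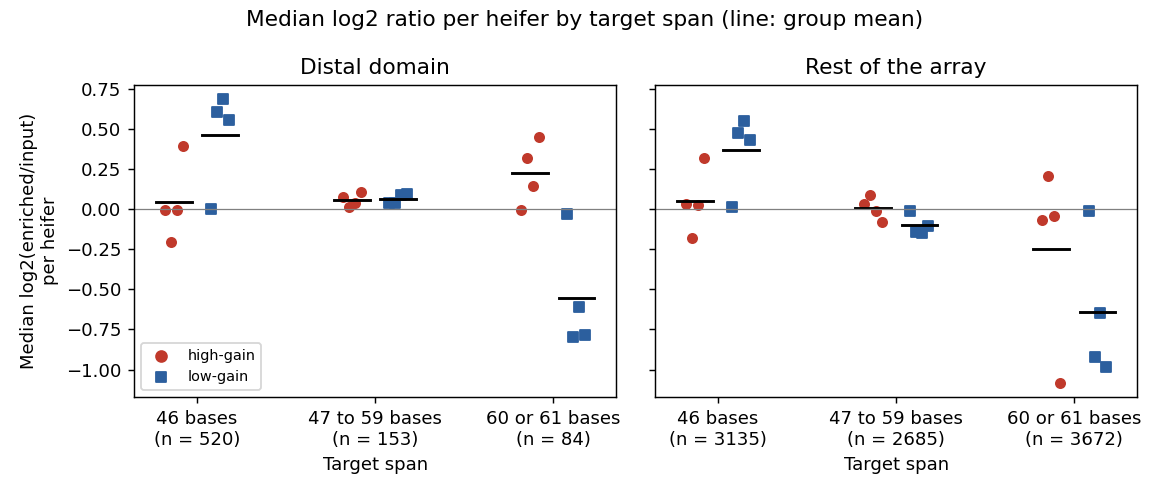
Median log2 ratio relative to the array median of each heifer (vertical axis) by class of target span (horizontal axis, n is the number of targets), for the distal domain and for the rest of the array. Red circles are high-gain and blue squares low-gain heifers, placed in order of heifer number, and black bars are group means. At 46 bases low-gain heifers 6, 7 and 8 lie above the high-gain heifers, and at 60 or 61 bases in the domain they lie under them.

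Each array was therefore also centred within the 3 classes of target span, an addition made after the values were seen. The median difference over the 110 regions was then -0.095 in place of -0.34, and over all regions -0.052. Higher regions numbered 7 and lower ones 13, or 6.36% and 11.8%, against 5.42% and 7.40% of all regions. Higher windows numbered 2 and lower ones 3, or 5.41% and 8.11%, against 5.08% and 7.34% of all windows. The region from 50882389 to 50883681 kept its call, with a difference of 1.82 (limma, adjusted p = 0.0440). With classes of target span and of input brightness combined, 6 regions were higher and 12 lower, or 5.45% and 10.9%, against 4.38% and 4.79% of all regions. The median difference was -0.11, against 0.0021 over all regions, and that region differed by 1.65 (limma, adjusted p = 0.0275).

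The group difference also went with input brightness. When all probes of the array were divided into 4 classes of equal size by their mean input signal, the median difference in the domain was -0.51 in the dimmest class (145 probes), -0.45 in the next (255), -0.25 in the next (198) and -0.071 in the brightest (159). Elsewhere on the array it ran from -0.59 in the dimmest to 0.66 in the brightest class. In the brightest class low-gain heifer 8 lay at -0.41 and the other 7 heifers between -0.066 and 0.53. In the dimmest class 18.5% of the captured signals stood well above background. Span and brightness were entangled. In the dimmest class elsewhere on the array the median difference did not order by span, at -0.53 for 46 bases, -0.51 for 47 to 59 bases and -0.68 for 60 or 61 bases. In the brightest class of the domain it was -0.33, 0.51 and 0.78 in the same order. The 2 probes that carried the called region were bright, with input signals 3.83 and 3.59 log2 units over the array median.

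The stretch of chromosome 29 proximal to 50750000 was the nearest comparison, with 941 probes and 121 regions. There 3 regions had more and 12 (9.92%) less enrichment in the high-gain group at an unadjusted p under 0.05, none passed (limma), and the median difference was -0.14. A difference below 0 was found at 59.5% of its regions, 69.0% of its 42 windows and 64.2% of its probes. In the domain these shares were 70%, 75.7% and 70.3%. Of its windows 6 (14.3%) were lower and 0 higher at that p. The median difference over its probes was -0.27, against -0.35 over those of the domain. The difference between both stretches was not tested.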

How the data were processed

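Each of 8 heifers gave 1 two-colour Agilent array. Per the file headers, Feature Extraction 10.7.1.1 made the deposited intensity values used here (processed signals, background-subtracted and dye-normalised by the software, with green for input and red for enriched DNA), and positions are on Btau_3.1. The authors' deposited log2 ratios equalled ratios of background-subtracted median signals, uncentred, and served as an alternative. Per the labels, 3 µg of DNA was labelled per channel, and no dye was swapped, so a common dye effect cancels between groups but not in the profile.

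For the 10249 non-control probes the log2 ratio was taken and the median of the array subtracted, without 28 outlier-flagged spots (1 in the domain). Tests were two-sided and used limma 3.58.1 (lmFit, eBayes) under R 4.3.3. Steps were tested on simulated data with independent noise per probe and array, which lacks the correlations between arrays seen in these data. Named items were every region past the threshold, up to 8 regions, 4 windows and 6 probes (well above background in both channels on at least 2 arrays of each group) per direction by smallest p under 0.05, the 5 highest and 5 lowest regions and the 3 highest and 3 lowest windows of the profile. Items named by smallest p tend to have overstated differences. The members, classes and rules were chosen with earlier results of these data known. All arrays shared 1 slide and 1 scan date, and the slide row, with 2 heifers of each group, served as a batch. The number of arrays limits the precision. Alternatives covered background correction, normalisation, probe filters, slide row, array weights, each heifer left out, and region and window size.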

Additional observations from a re-analysis of the deposited data

Results flagged for a closer look

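Within groups of 4 heifers, 90 sets of values were screened for a heifer far from the other 3 of its group by Dixon's criterion, which chance gives in about 1 of 20 sets, and 5 stood out. Low-gain heifer 5 accounted for 4 of them. It lay at -0.33 in the region from 51415847 to 51419363, where the other 3 low-gain heifers lay between -1.45 and -1.34. It lay at 0.16 in the window from 51120140 to 51139991 (others 0.73 to 0.78), at -0.11 in the window from 51220344 to 51239177 (others 1.06 to 1.22) and at 0.63 at the probe starting at 51449607 (others 2.23 to 2.36). Low-gain heifer 8 had the enriched channel well above background at 60.6% of the domain's probes, where the other low-gain heifers had 74.0% to 76.5%.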

How the results depend on the processing

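Of 1000 comparisons of 47 named values with their alternatives, 867 kept direction and side of the threshold. A call was lost in 68 and gained in 64, and 1 value changed sign. That was the region from 51335096 to 51335708 in the profile, at 0.25 with the median over its probes. Most of the 47 values had not passed to begin with, so for them keeping their side meant staying uncalled. Only the few that had passed could lose a call, so the 867 do not measure how stable the calls were. The 1 region called between the groups was 0 with loess, with a filter on dim input or on dim signal of either channel, within slide row 1, within slide row 2, and with gaps of 500 or 2000 bp. It was 3 with normexp (all higher; 0.729% of all regions called) and 38 with array weights (6 higher and 32 lower; 20% of all regions called). The 12 regions called in the profile were 25 with normexp, 34 with loess, 7 with scaling, 0 within slide row 1, 35 with array weights, 6 and 7 with gaps of 500 and 2000 bp, and 2 with the median over probes. The direction moved too, from 10 above and 2 below the array median to 9 above and 16 below with normexp. With loess it was 31 above and 3 below, and with array weights 29 and 6. The median of the region means was 0.018 with normexp, against 0.13 in the main analysis. Profile calls over the whole array were not counted in these settings. The 0 windows called between the groups were 1 with normexp (0.565% of all windows) and 21 with array weights (1 higher and 20 lower; 31.9% of all windows), and the 0 probes were 33 with array weights (4.36%, against 4.4% of all probes). The 4 windows of the profile were 7 with normexp, 22 with loess, 0 within slide row 1, 15 with array weights, 8 at 10 kb and 1 at 50 kb. In the main analysis 3 of these windows lay above the array median and 1 below it. With normexp 0 lay above and 7 below, so the calls above were all lost. With loess it was 21 above and 1 below, and with array weights 13 and 2. The median of the window means was 0.116 in the main analysis and -0.016 with normexp. Centring within span classes, centring within span and input brightness classes, and leaving out probes dim on every array of a group were chosen after seeing the data. In that order they gave 3, 3 and 5 regions of the profile above the array median and 4, 0 and 2 below it. The median of the region means, 0.13 in the main analysis, was 0.021, 0.0089 and 0.18. Windows of the profile numbered 0, 0 and 4 above and 1, 0 and 1 below. The third setting gave 0 regions between the groups. Leaving out each heifer in turn gave 0 to 4 regions, 0 to 4 windows, 0 to 17 probes and 0 to 2 enriched-channel regions between the groups. The highest of each came without low-gain heifer 5. The 4 regions were then 3.64% of the domain, against 2.60% of all regions, and the 4 windows 10.8%, against 5.08%. The 17 probes were 2.25%, against 3.01% of all probes. Enriched-channel calls over the whole array were not counted there. In the profile it gave 1 to 32 regions and 1 to 14 windows. The median difference over the windows of the domain turned from -0.25 to 0.018 with normexp. The cause of these changes was not tested. With only bright probes the called region kept too few probes to be tested. No paired analysis was possible because the heifers of both groups carry different numbers. Capture and labelling batches are not given in the labels and were not tested, and at dim probes the ratio is limited by the background.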
